A study of Mus musculus with 12 samples.

Results

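The genes described here are the secreted and membrane-bound metalloproteinases that cut the extracellular matrix, their inhibitors and their non-catalytic relatives: the matrix metalloproteinases (Mmp), the tissue inhibitors of metalloproteinases (Timp), the secreted proteases with thrombospondin repeats (Adamts) and the Adamts-like proteins (Adamtsl). They were taken from the count table by gene symbol. Of its 43432 gene rows, 51 carried such a symbol, and the 36 with at least 15 counts over all 12 libraries were kept: 4 of 4 Timp, 12 of 23 Mmp, 15 of 19 Adamts and 5 of 5 Adamtsl genes. The lowest total kept was 15 (Adamts13) and the highest total left out was 10. Of the 15 genes left out, 9 had no count in any library. Mmp13, the main mouse interstitial collagenase, and Mmp7 (matrilysin) were among the 15. Expression had been measured by RNA sequencing of total RNA from gastrocnemius, the large superficial calf muscle, of male mice. There were 4 groups of 3 libraries: exercised cFeimin MKO and exercised WT mice, which ran for 90 min at 60% of top speed, and sedentary cFeimin MKO and sedentary WT mice. The WT mice were fl/fl, with both alleles of the gene floxed and no knockout, and the MKO mice were their littermates with cellular Feimin (cFeimin) knocked out. Neither the Cre driver, nor the cells that lost the gene, nor the age of the mice, nor the delay between run and sampling is stated in the labels. The study asked how cellular Feimin bears on running, and the 4 groups allow the genotypes to be compared within each state and the states within each genotype.

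Matrix proteases are made as inactive proenzymes and are switched on by removal of a propeptide, by furin-like enzymes, by plasmin or by other metalloproteinases. TIMPs bind the active site of metalloproteinases and block it, and the balance of protease and inhibitor sets how fast collagen, proteoglycans and microfibrils around muscle fibres are turned over. In skeletal muscle many of these genes are made mainly by fibroblast-like fibro-adipogenic progenitors, by cells of the vessel wall and by macrophages, rather than by the fibres that give most of the RNA.

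The libraries had close to equal totals, 14324010 to 14563501 counts, of which the 36 genes took 0.0347% to 0.0477%. Levels are given as CPM, counts divided by library size after TMM scaling, and 3 counts, the limit used for a library without counts, corresponded to 0.181 to 0.222 CPM. The genotype labels were checked on B230219D22Rik, taken from general knowledge to be the Feimin gene: it had 4.06 ± 0.534 CPM in exercised MKO, 25.4 ± 4.15 CPM in exercised WT, 4.92 ± 1.25 CPM in sedentary MKO and 22.6 ± 1.41 CPM in sedentary WT muscle (mean ± SD, n = 3 each, as for all group means below). Muscle fibre genes (Acta1, Ckm, Myh4, Myh1, Tnnt3 and Mb) summed to 87413 to 127802 CPM, so the tissue was muscle as labelled. Sedentary MKO replicate 3 (the highest TMM factor, 1.15), exercised WT replicate 5 and exercised MKO replicate 4 (the ends of the second principal component, 27.5 and -45.8) stood apart from their groups. Nothing in the labels says that libraries of a group came from separate mice beyond calling them separate samples, and p-values measure the spread between these samples.

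Per length of exon, in RPKM, which divides CPM by exon length, the inhibitors Timp2 and Timp3 were the 2 most abundant of the 36 genes. Timp2, which blocks MMPs and also helps to activate pro-Mmp2 at the cell surface, averaged 18.4 RPKM over the 12 libraries, and Timp3, the matrix-bound inhibitor that also blocks ADAM17 and aggrecanases, averaged 15.3 RPKM. Their order depends on the state and on the transcript length used. Timp2 had 14.62 ± 1.32 RPKM in the 6 exercised libraries and 22.17 ± 1.25 RPKM in the 6 sedentary ones, while Timp3 had 15.42 ± 2.38 RPKM and 15.27 ± 1.08 RPKM, so the pair did not differ beyond their SDs after the run. With the longest annotated transcript in place of all exons Timp3 averaged 26.5 RPKM and Timp2 19.3 RPKM. Mmp2 (gelatinase A) was the most abundant protease at 8.94 RPKM. It was followed by the non-catalytic Adamtsl4, a fibrillin-binding protein, at 6.74 RPKM and Adamtsl5 at 5.99 RPKM, by the membrane-anchored Mmp15 at 4.26 RPKM, by the versican- and aggrecan-cutting Adamts1 at 4.07 RPKM and by Timp4, the TIMP known from heart and skeletal muscle, at 3.92 RPKM. Over the 6 libraries of each state, Adamtsl4 and Adamtsl5 did not differ beyond their SDs (6.46 ± 0.556 and 5.78 ± 1.09 RPKM after the run, 7.03 ± 1.12 and 6.20 ± 1.10 RPKM at rest), nor did Mmp15 and Adamts1. Timp1 (1.11 RPKM) and Adamts9 (0.95 RPKM) were next in the mean over all libraries, but Timp1 was at 0 in 6 of the 12 and Adamts9 stood at 1.60 ± 0.569 RPKM after the run and 0.304 ± 0.0602 RPKM at rest. The other 26 genes averaged 0.754 RPKM (Adamts10) down to 0.018 RPKM (Adamts13, the protease of von Willebrand factor). Counted as CPM, the TIMPs made up 47.8% to 57.9% of the summed level of the 36 genes in each library.

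**Figure D1:**
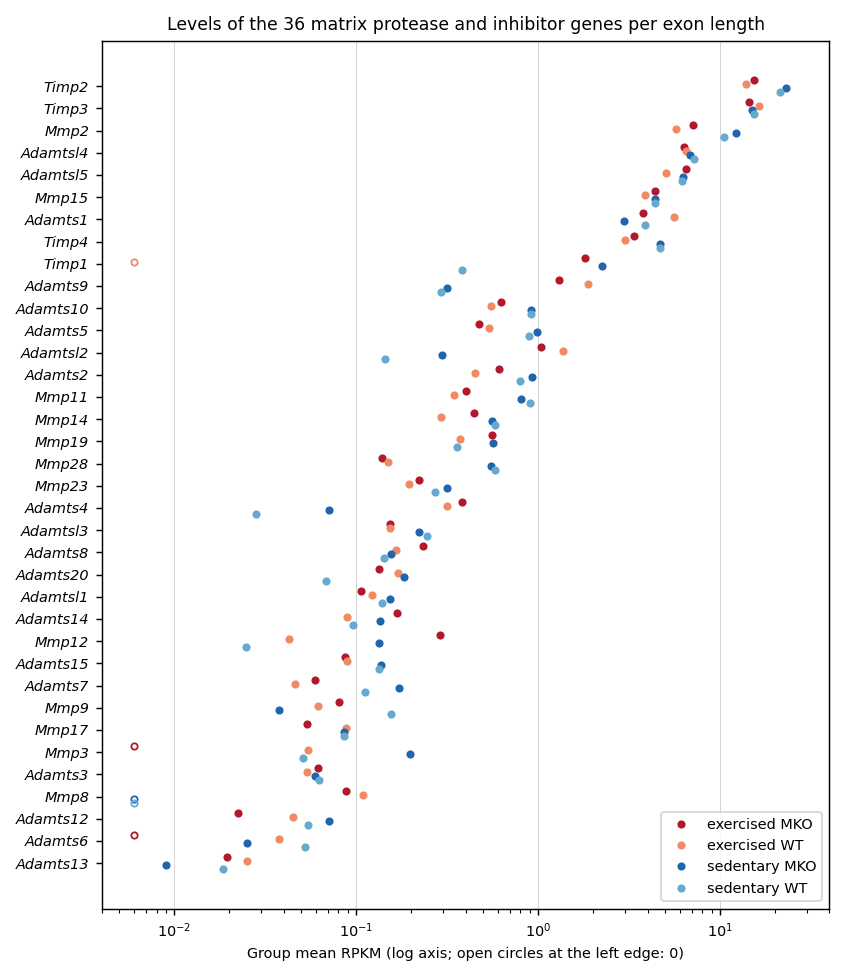
Group mean RPKM (log axis) of the 36 genes in exercised MKO, exercised WT, sedentary MKO and sedentary WT muscle, 3 libraries a group, ordered by the mean over all libraries; open circles at the left edge are group means of 0. Timp2 and Timp3 lie at the top near 18.4 and 15.3 RPKM, and the states separate for Adamts9, Adamtsl2 and Adamts4, which are higher after the run, and for Mmp2 and Mmp28, which are lower.

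RefSeq promoter windows (GRCm38.p6, 250 bases before to 50 bases after the transcript start) were matched by symbol for 24 of the 36 genes. Those not matched were Adamts4, Adamts5, Adamts6, Adamts7, Adamts8, Adamts10, Adamts15, Adamtsl1, Mmp2, Mmp9, Mmp17 and Mmp19. The windows of Adamts9 and Adamtsl2, the genes with the smallest adjusted p-values among those that rose with running, and of Mmp28, which had the largest fall among the genes with a window that changed in both genotypes, are shown because the account of the run turns on them. Each is given 5′ to 3′ on the strand of its gene, at chr6:92943485-92943784 on the minus strand for Adamts9, chr2:27079129-27079428 on the plus strand for Adamtsl2 and chr11:83462991-83463290 on the minus strand for Mmp28.
Adamts9: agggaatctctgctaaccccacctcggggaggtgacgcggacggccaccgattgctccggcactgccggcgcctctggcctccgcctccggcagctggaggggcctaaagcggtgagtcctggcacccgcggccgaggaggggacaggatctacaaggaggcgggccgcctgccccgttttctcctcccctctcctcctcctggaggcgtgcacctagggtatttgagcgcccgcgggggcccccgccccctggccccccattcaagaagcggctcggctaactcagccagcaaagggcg
Adamtsl2: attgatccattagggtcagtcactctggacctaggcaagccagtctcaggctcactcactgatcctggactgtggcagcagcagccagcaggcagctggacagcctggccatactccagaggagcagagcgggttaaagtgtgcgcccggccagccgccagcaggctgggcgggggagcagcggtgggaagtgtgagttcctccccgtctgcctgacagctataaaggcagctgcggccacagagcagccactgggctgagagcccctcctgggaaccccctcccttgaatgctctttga
Mmp28: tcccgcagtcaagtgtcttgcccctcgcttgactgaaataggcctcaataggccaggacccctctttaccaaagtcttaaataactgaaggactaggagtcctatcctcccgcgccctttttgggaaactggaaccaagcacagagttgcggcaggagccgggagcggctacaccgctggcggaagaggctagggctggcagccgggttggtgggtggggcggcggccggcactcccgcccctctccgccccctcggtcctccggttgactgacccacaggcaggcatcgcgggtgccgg
None of these 3 windows held, on either strand, the AP-1 motif TGANTCA (found in 7.808% of all 32851 windows), the E-box CACGTG (7.15%) or the STAT motif TTCNNNGAA (8.298%), where N is any base. They were rich in G and C, with 70% in the Adamts9 window, 62.33% in that of Adamtsl2 and 63.67% in that of Mmp28, against a median of 64.17% over the 26 windows of the family and 52.67% over all windows. Of the 24 genes with a window, only Mmp12 and Mmp3, neighbours on chromosome 9, held the AP-1 motif. It was in 2 of the 26 windows of the family, a share near the 7.808% of all windows. Mmp12 had a further window, at chr9:7344147-7344446, without the motif. A stretch of 100 bases of each window with the motif is shown, with the motif in capitals. These lie at chr9:7347284-7347383 (Mmp12) and chr9:7445732-7445831 (Mmp3), both on the plus strand.
Mmp12: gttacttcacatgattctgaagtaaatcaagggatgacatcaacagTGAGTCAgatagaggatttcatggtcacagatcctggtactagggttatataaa
Mmp3: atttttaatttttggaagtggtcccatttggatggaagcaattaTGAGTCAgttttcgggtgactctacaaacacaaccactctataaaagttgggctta
Both stretches had the same 7 letters. They started 44 bases before the transcript start of that window in Mmp12 and 46 bases before it in Mmp3. The STAT motif was found in 2 of the 26 windows, both of Mmp23, and none of the 26 held the E-box. A match is a description of the letters and says nothing about binding.

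The comparison of exercised with sedentary muscle asks what the run does in each genotype. Of the 30 genes with enough counts to test, 8 passed in MKO muscle (3 higher and 5 lower after the run) and 10 in WT muscle (3 higher and 7 lower), at an adjusted p under 0.05. The share of all 14486 tested genes that passed was 4.05% in MKO (2.29% higher, 1.75% lower) and 8.24% in WT (4.14% higher, 4.1% lower). The 3 genes that rose were the same in both genotypes, Adamts4, Adamts9 and Adamtsl2, and the 5 that fell in MKO muscle (Mmp2, Mmp28, Timp2, Adamts2 and Adamts5) were among the 7 that fell in WT, with Mmp11 and Adamts10. Averaged over both genotypes, which uses all 12 libraries, 13 passed, with Mmp14, Timp4 and Adamts7 added to those that fell (3 higher and 10 lower; 13.6% of all genes passed, 6.16% higher and 7.4% lower). Without the 3 libraries that stood apart, 7 passed in MKO, 10 in WT and 13 in the average. The median log2 fold change of the 30 genes was -0.46 in MKO and -0.28 in WT, while that of all genes was 0.00161 in MKO and -0.00686 in WT. Both medians were negative under all 21 alternative settings but their size was not stable, at -0.61 to -0.19 in MKO and -0.56 to -0.18 in WT, so their order is not read as a difference. The MKO median was -0.19 without exercised MKO replicate 2 and -0.28 without sedentary MKO replicate 3, and the WT median was -0.51 without exercised WT replicate 3, -0.18 without sedentary WT replicate 3 and -0.56 without the 3 libraries that stood apart. The fold change was negative for 22 of 30 genes in MKO and for 20 of 30 in WT. The 3 libraries of each state did not overlap for 12 of the 30 genes in MKO (21.7% of all genes), 14 in WT (27.3%) and 11 in both genotypes at once (10.7%). Of the 30, 7 reached 10 counts in at least 3 libraries of 1 state only (Adamts4, Adamts7, Adamts12, Adamts14, Mmp23, Mmp28 and Timp1), so they entered the test wholly or mainly through the state where they were high. In the same way, 6 reached 10 counts in at least 3 libraries of MKO only (Adamts7, Adamts8, Adamts12, Adamts14, Mmp12 and Timp1) and 0 in at least 3 of WT only. Medians and counts over the 30 are therefore given as description. Of the calls within a genotype, those for Timp2, Adamts9 and Adamtsl2 in both genotypes, Adamts5 in MKO and Adamts4 in WT passed under every alternative tried, and the others were lost under at least 1. In RNA from whole muscle, fewer cells of a type and less RNA per cell cannot be told apart.

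Among the inhibitors, Timp2 fell in both genotypes, Timp4 passed only when the genotypes were averaged, and Timp3 and Timp1 did not pass. Timp2 (chr11:118301069-118355740, minus strand) had 64.6, 53.0 and 62.1 CPM in exercised MKO muscle, against 87.0, 88.4 and 93.4 CPM in sedentary MKO muscle. In WT mice it had 52.5, 55.5 and 54.0 CPM after the run, against 84.7, 78.6 and 86.2 CPM in sedentary muscle. All 6 exercised libraries lay below all 6 sedentary ones. The log2 fold change was -0.58 ± 0.09 (SE; edgeR, adjusted p = 0.00392) in MKO and -0.62 ± 0.09 (edgeR, adjusted p = 0.0012) in WT. Timp4 (chr6:115241892-115252205, minus strand) had 23.2, 21 and 15.1 CPM in exercised MKO and 33.3, 26.9 and 22.6 CPM in sedentary MKO muscle, where the groups overlapped. It had 16.2, 18.0 and 18.7 CPM in exercised WT and 30.3, 20.8 and 31.4 CPM in sedentary WT muscle, where they did not. Neither genotype passed alone (-0.48 ± 0.19, edgeR, adjusted p = 0.26 in MKO, and -0.64 ± 0.20, edgeR, adjusted p = 0.0718 in WT), while their average passed at -0.56 ± 0.14 (edgeR, adjusted p = 0.0185). That call ended without sedentary WT replicate 4 (adjusted p = 0.0513) and without exercised WT replicate 3 (adjusted p = 0.0552).

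Timp3 (chr10:86300372-86349506, plus strand) had 136.0, 124.9 and 90.1 CPM in exercised MKO and 125.4, 129.1 and 147.9 CPM in exercised WT muscle. In sedentary muscle it had 133.8, 124.0 and 109.9 CPM in MKO and 133.2, 122.4 and 122.7 CPM in WT. The groups overlapped in every comparison, and the log2 fold change with running was -0.07 ± 0.14 in MKO (edgeR, adjusted p = 0.899) and 0.09 ± 0.14 in WT (edgeR, adjusted p = 0.789). Timp1 (chrX:20870166-20874735, plus strand), the inhibitor that many cells induce on injury or inflammation, was low and uneven. It had 14, 0 and 54 counts in exercised MKO and 0, 11 and 87 in sedentary MKO muscle, which gave -0.34 ± 1.22 (edgeR, adjusted p = 0.95). No exercised WT library had a count of Timp1, against 4, 11 and 0 counts in sedentary WT muscle, a level at least 1.55-fold lower after the run with 3 counts per library as the floor (edgeR, adjusted p = 0.578). That bound rests on sedentary WT replicate 3, without which the sedentary mean of 0.137 CPM was under the floor of 0.218 CPM. Averaged over genotypes Timp1 did not pass either (edgeR, adjusted p = 0.522). Neither difference within a genotype exceeded the spread between libraries.

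Among the MMPs, the summed level of the 12 genes was 44.8 to 62.5 CPM in the 6 exercised libraries and 64.3 to 80.1 CPM in the 6 sedentary ones. Mmp2 (chr8:92827291-92853420, plus strand), which cuts denatured collagen and type IV collagen, had 25.9, 19.0 and 27.4 CPM in exercised MKO and 39.4, 45.1 and 39.98 CPM in sedentary MKO muscle. In WT mice Mmp2 stood at 19.8, 18.2 and 20.4 CPM after the run, against 39.9, 37.5 and 29.4 CPM in sedentary muscle. Every exercised library lay below every sedentary one, and the log2 fold change was -0.78 ± 0.14 (edgeR, adjusted p = 0.00985) in MKO and -0.87 ± 0.15 (edgeR, adjusted p = 0.0033) in WT. Mmp28 (epilysin; chr11:83440768-83463071, minus strand) fell in both genotypes. It had 0.959, 0.370 and 0.287 CPM in exercised MKO and 2.73, 2.01 and 1.69 CPM in sedentary MKO muscle, and 0.566, 0.591 and 0.590 CPM in exercised WT and 2.13, 2.23 and 2.40 CPM in sedentary WT muscle. States did not overlap, with log2 fold changes of -1.95 ± 0.34 (edgeR, adjusted p = 0.00689) in MKO and -1.94 ± 0.33 (edgeR, adjusted p = 0.00376) in WT. Mmp28 reached 10 counts in 1 exercised and 6 sedentary libraries, so it entered the test mainly through the state where it was high. Without exercised MKO replicate 1 the MKO value was -2.67, and with only the groups compared in the fit the MKO call was lost (edgeR, adjusted p = 0.0604).

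Mmp11 (stromelysin-3, a protease activated by furin inside the cell; chr10:75923222-75936496, minus strand) had 0.890, 0.889 and 1.58 CPM in exercised MKO and 2.2, 2.14 and 2.36 CPM in sedentary MKO muscle. In exercised WT it had 0.354, 0.960 and 1.55 CPM, against 2.06, 2.97 and 2.47 CPM in sedentary WT muscle. States did not overlap in either genotype. The log2 fold change was -0.99 ± 0.36 (edgeR, adjusted p = 0.183) in MKO and -1.39 ± 0.36 (edgeR, adjusted p = 0.0354) in WT, and their average was -1.19 ± 0.25 (edgeR, adjusted p = 0.00824). The WT call ended when any of 7 libraries was left out (sedentary WT replicates 1, 3 and 4, sedentary MKO replicates 1 and 2, and exercised WT replicates 3 and 4; adjusted p = 0.0523 to 0.13). Mmp14 (MT1-MMP, the membrane protease that activates pro-Mmp2 with the help of Timp2; chr14:54431612-54445364, plus strand) had 2.88, 1.93 and 3.16 CPM in exercised MKO and 3.46, 3.07 and 3.39 CPM in sedentary MKO muscle. It had 1.56, 1.4 and 2.29 CPM in exercised WT and 2.27, 4.59 and 3.5 CPM in sedentary WT muscle, and the groups overlapped in both genotypes. Its log2 fold change was -0.31 ± 0.26 (edgeR, adjusted p = 0.656) in MKO and -0.98 ± 0.28 (edgeR, adjusted p = 0.0509) in WT, and the average of -0.65 ± 0.19 passed (edgeR, adjusted p = 0.0426). Leaving out sedentary WT replicate 3 or 4, any sedentary MKO library, exercised WT replicate 3 or 4 or exercised MKO replicate 1 or 2 ended that call (adjusted p = 0.0645 to 0.105).

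No other MMP passed with running. Mmp15 had group means between 21 ± 3.3 CPM in exercised WT and 23.8 ± 1.70 CPM in sedentary MKO muscle, and its log2 fold change was -0.01 ± 0.12 in MKO and -0.17 ± 0.12 in WT. Mmp19 averaged 1.98 ± 0.21 CPM in exercised MKO and 1.32 ± 0.74 CPM in exercised WT, against 2.0 ± 0.662 CPM in sedentary MKO and 1.27 ± 0.667 CPM in sedentary WT muscle. Mmp17, anchored to the membrane by a lipid, and Mmp23, a membrane-tethered enzyme, reached at most 0.811 CPM (Mmp17) and 1.09 CPM (Mmp23) in any library. Mmp3 (stromelysin-1), Mmp8 (neutrophil collagenase) and Mmp9 (gelatinase B) were too low to test. Mmp9 had 0.285 ± 0.0642 CPM in exercised MKO, 0.217 ± 0.193 CPM in exercised WT, 0.133 ± 0.133 CPM in sedentary MKO and 0.547 ± 0.419 CPM in sedentary WT muscle. It had 15 counts in sedentary WT replicate 4 (1.03 CPM) and at most 5 counts in any other library. Mmp8 had counts in 4 of 6 exercised libraries and in 0 of 6 sedentary ones, at most 0.496 CPM. The 10 neutrophil markers examined beside them summed to at most 1.87 CPM, with S100a8, Ly6g, Camp, Ltf and Elane at 0 in every library.

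**Figure D2:**
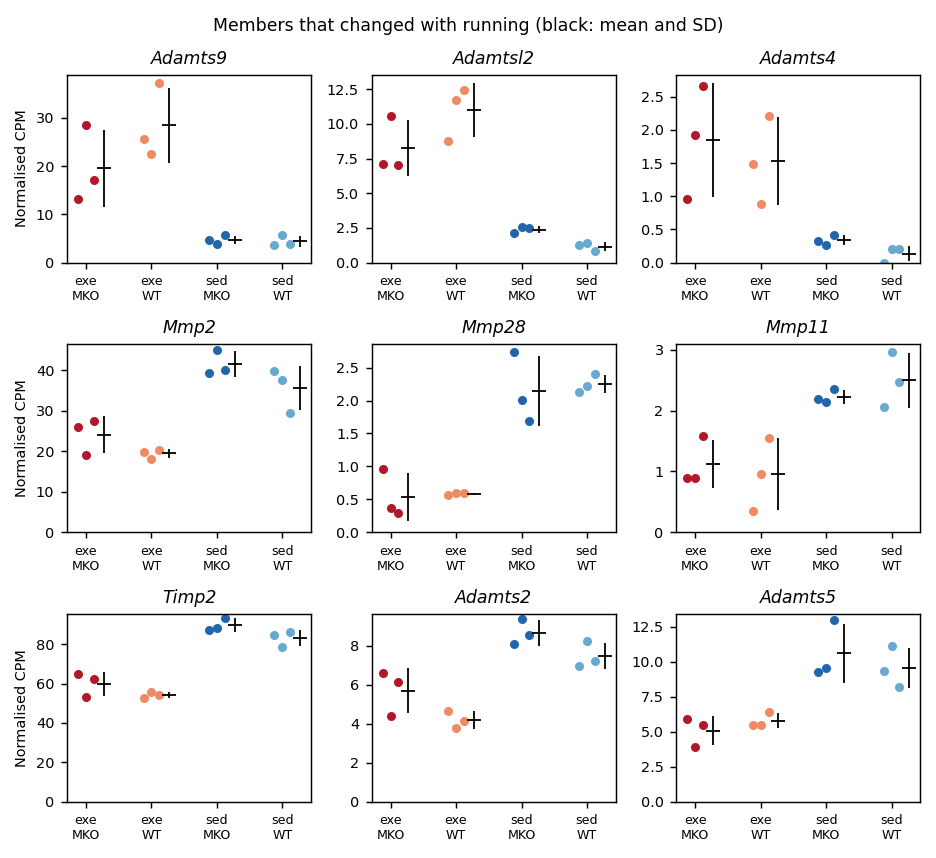
CPM in each of the 12 libraries (points, 3 per group, exercised MKO, exercised WT, sedentary MKO, sedentary WT from left to right) for the genes that changed with running, with the group mean and SD in black. In the panels of Adamts9 and Adamtsl2 every exercised library stands above every sedentary one, and in those of Timp2, Mmp2 and Mmp28 every exercised library stands below.

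The ADAMTS proteases split: genes for the proteoglycan-cutting Adamts4 and Adamts9 rose, while those for the proteoglycan-cutting Adamts5 and the procollagen N-proteinase Adamts2 fell. Adamts9 (chr6:92772699-92943492, minus strand), whose product cuts versican and aggrecan, had 13.1, 28.4 and 17.2 CPM in exercised MKO and 4.73, 3.94 and 5.63 CPM in sedentary MKO muscle. In exercised WT it had 25.7, 22.5 and 37.2 CPM, against 3.71, 5.66 and 3.77 CPM in sedentary WT muscle. The lowest exercised library was thus above the highest sedentary one in both genotypes. It was 4.08-fold higher after the run in MKO (log2 fold change 2.03 ± 0.30, edgeR, adjusted p = 0.00344) and 6.48-fold higher in WT (2.70 ± 0.31, edgeR, adjusted p = 0.000255). Its promoter window, shown above, was the richest in G and C of the 3 windows printed.

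Adamts4 (aggrecanase-1; chr1:171250421-171260637, plus strand) was nearly silent in sedentary muscle. It had 14, 26 and 37 counts in exercised MKO and 5, 4 and 7 counts in sedentary MKO muscle, which is 0.959, 1.93 and 2.66 CPM after the run against 0.333, 0.267 and 0.423 CPM. In WT mice it had 21, 12 and 30 counts after the run and 0, 3 and 3 counts in sedentary muscle, or 1.49, 0.886 and 2.21 CPM against 0, 0.202 and 0.206 CPM. No sedentary library reached an exercised one. Adamts4 reached 10 counts in 6 exercised and 0 sedentary libraries, so it entered the test only through the state where it was high. The separation and the calls are given with that limit. The log2 fold change was 2.39 ± 0.52 (edgeR, adjusted p = 0.0246) in MKO and 3.41 ± 0.65 (edgeR, adjusted p = 0.00646) in WT. The MKO call ended without any of the 3 sedentary MKO libraries or without exercised MKO replicate 2 or 4 (adjusted p = 0.0603 to 0.1). Whether counting used strand is not stated in the labels or notes, and the Adamts4 counts are uncertain to that extent.

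Adamts5 (aggrecanase-2; chr16:85856173-85901828, minus strand) had 5.89, 3.93 and 5.46 CPM in exercised MKO and 9.26, 9.56 and 13.0 CPM in sedentary MKO muscle. It had 5.52, 5.47 and 6.42 CPM in exercised WT and 9.35, 11.1 and 8.23 CPM in sedentary WT muscle. All exercised libraries were below all sedentary ones, and the log2 fold change was -1.06 ± 0.18 (edgeR, adjusted p = 0.00689) in MKO and -0.72 ± 0.18 (edgeR, adjusted p = 0.0303) in WT. The WT call ended without sedentary WT replicate 1 or 3 or exercised WT replicate 3 or 4 (adjusted p = 0.0663 to 0.121). Adamts1, whose gene lies 53059 bases from that of Adamts5 on the same strand of chromosome 16, had 17.3, 28.2 and 14.7 CPM in exercised MKO and 21.2, 13.0 and 12.9 CPM in sedentary MKO muscle. Adamts1 had 29.0, 21.5 and 38.9 CPM in exercised WT and 12, 25.1 and 24.9 CPM in sedentary WT muscle. The states overlapped, with log2 fold changes of 0.35 ± 0.34 in MKO (edgeR, adjusted p = 0.716) and 0.53 ± 0.33 in WT (edgeR, adjusted p = 0.409).

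Of the procollagen N-proteinases, which trim the amino-terminal propeptide of fibrillar collagens, Adamts2 was the most abundant per length (0.696 RPKM, against 0.122 RPKM for Adamts14 and 0.0594 RPKM for Adamts3). Adamts2 (chr11:50602084-50807573, plus strand) had 6.58, 4.37 and 6.11 CPM in exercised MKO and 8.06, 9.36 and 8.53 CPM in sedentary MKO muscle. It had 4.67, 3.77 and 4.13 CPM in exercised WT, against 6.94, 8.23 and 7.2 CPM in sedentary WT muscle. Neither genotype showed overlap between the states, and the log2 fold change was -0.60 ± 0.15 (edgeR, adjusted p = 0.0457) in MKO and -0.83 ± 0.16 (edgeR, adjusted p = 0.00603) in WT. The MKO call stood close to the threshold and ended when any library other than exercised MKO replicate 1 was left out (adjusted p = 0.051 to 0.155). Adamts10 (chr17:33524204-33553782, plus strand), which binds fibrillin microfibrils, had 5.07, 5.41 and 5.10 CPM in exercised MKO and 8.39, 7.15 and 7.14 CPM in sedentary MKO muscle, and 3.75, 3.62 and 6.27 CPM in exercised WT and 7.70, 7.62 and 7.48 CPM in sedentary WT muscle. It was lower after the run without overlap in both genotypes, by -0.54 ± 0.17 in log2 fold change in MKO (edgeR, adjusted p = 0.127) and -0.74 ± 0.18 in WT (edgeR, adjusted p = 0.0232), with an average of -0.64 ± 0.12 (edgeR, adjusted p = 0.00457). Leaving out any sedentary WT library or exercised WT replicate 3 or 4 ended the WT call (adjusted p = 0.0621 to 0.111).

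Adamts7 (chr9:90163069-90208071, plus strand), which cuts cartilage oligomeric matrix protein, had 0.616, 0 and 0.503 CPM in exercised MKO and 1.07, 1.07 and 1.09 CPM in sedentary MKO muscle, and 0.283, 0.148 and 0.442 CPM in exercised WT and 0.825, 0.674 and 0.617 CPM in sedentary WT muscle. It passed only in the average over genotypes (-1.37 ± 0.41, edgeR, adjusted p = 0.0456), and that call ended without any sedentary library, without exercised WT replicate 3 or 4 and without exercised MKO replicate 4 (adjusted p = 0.0612 to 0.112). Adamts7 reached 10 counts in 0 exercised and 5 sedentary libraries, so it entered the test only through the state where it was high. Adamts7 shares 122 exonic bases with Tbc1d2b on the opposite strand, which fell too, by 0.77 in average log2 fold change (edgeR, adjusted p = 0.000666). Its relative Adamts12 averaged 0.244 ± 0.225 CPM in exercised MKO, 0.489 ± 0.302 CPM in exercised WT, 0.772 ± 0.0651 CPM in sedentary MKO and 0.591 ± 0.0722 CPM in sedentary WT muscle and did not pass. Neither did Adamts8, Adamts14, Adamts15 and Adamts20, each at no more than 2.0 CPM in any library.

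Adamtsl2 gave the smallest adjusted p of the 36 genes in both genotypes. Its product has no protease domain; it binds microfibrils and the latent TGF-β binding protein Ltbp1, and mutations of the human gene cause geleophysic dysplasia, a disorder with short stature and stiff skin and joints. Adamtsl2 (chr2:27079379-27108981, plus strand) had 7.12, 10.6 and 7.04 CPM in exercised MKO and 2.13, 2.54 and 2.48 CPM in sedentary MKO muscle. It had 8.78, 11.7 and 12.5 CPM in exercised WT, against 1.24, 1.42 and 0.823 CPM in sedentary WT muscle. All exercised libraries stood above all sedentary ones. It was 3.45-fold higher after the run in MKO (log2 fold change 1.79 ± 0.21, edgeR, adjusted p = 0.000989) and 9.41-fold higher in WT (3.23 ± 0.24, edgeR, adjusted p = 1.69e-05). The other 4 Adamtsl genes did not pass. Adamtsl4 averaged 26.8 ± 0.938 CPM in exercised MKO, 27.4 ± 3.52 CPM in exercised WT, 28.8 ± 6.84 CPM in sedentary MKO and 30.2 ± 2.65 CPM in sedentary WT muscle. Adamtsl5 averaged 30.8 ± 4.72 CPM in exercised MKO, 23.8 ± 2.64 CPM in exercised WT, 29.5 ± 7.46 CPM in sedentary MKO and 29.1 ± 3.40 CPM in sedentary WT muscle. Adamtsl1 and Adamtsl3 lay between 0.503 and 2.73 CPM.

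**Figure D3:**
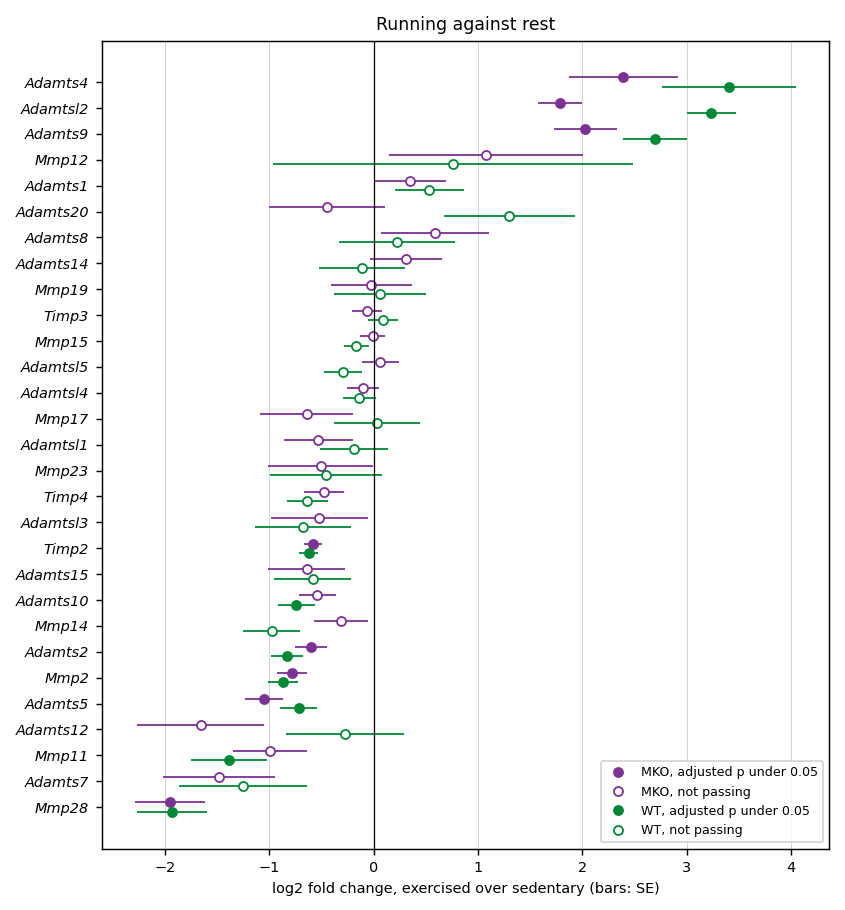
Log2 fold change with running (exercised over sedentary, bars ± SE) in MKO and in WT muscle for 29 of the 30 tested genes, with filled points where the adjusted p was under 0.05; Timp1 is left out because exercised WT muscle had no count of it. Adamts4, Adamts9 and Adamtsl2 stand at 1.79 to 3.41 and most of the others lie below 0.

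Genes that act beside the matrix proteases also moved with running. Of the 8 tested genes of the plasminogen system, which activates several pro-MMPs, the urokinase receptor gene Plaur rose by 3.02 ± 0.52 in log2 fold change in MKO (edgeR, adjusted p = 0.00694) and by 2.71 ± 0.49 in WT (edgeR, adjusted p = 0.00466), and the thrombomodulin gene Thbd rose by 0.93 ± 0.18 in MKO and by 1.52 ± 0.19 in WT. The urokinase gene Plau fell by 0.84 on the log2 scale in WT (edgeR, adjusted p = 0.00997) and did not pass in MKO. Of 10 genes for other inhibitors and clearance, 1 rose and 2 fell in each genotype: Thbs1, which encodes thrombospondin-1, rose by 1.87 ± 0.32 in MKO and 2.46 ± 0.33 in WT, Lrp1, the receptor that takes up protease and inhibitor complexes, had -0.62 ± 0.11 in both MKO and WT, and Pcolce, the procollagen C-proteinase enhancer, had -0.79 ± 0.16 in MKO and -0.86 ± 0.17 in WT. The membrane inhibitor Reck passed in the average over genotypes (-0.64 ± 0.16, edgeR, adjusted p = 0.0193). Of 9 membrane ADAM proteases, Adam19 fell in MKO (-0.96 ± 0.24, edgeR, adjusted p = 0.0494) and in WT (-1.01 ± 0.27, edgeR, adjusted p = 0.0368), and Adam8 rose in WT (2.16 ± 0.55, edgeR, adjusted p = 0.0322).

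Genes for the substrates and partners mostly had negative fold changes. Of 5 tested proteoglycan genes, 1 fell in MKO and 3 in WT: decorin (Dcn) by 0.73 on the log2 scale in MKO and 0.75 in WT, and in WT also biglycan (Bgn, -1.39 ± 0.28) and fibromodulin (Fmod, -1.30 ± 0.31). Of 9 microfibril genes, 3 fell in MKO and 4 in WT, among them fibrillin-1 (Fbn1, -0.93 ± 0.18 in MKO and -0.96 ± 0.19 in WT) and Ltbp1 (-0.59 ± 0.13 in MKO and -0.52 ± 0.13 in WT), the partners of Adamts10 and Adamtsl2. Of 8 tested genes for procollagen and lysyl processing, none passed in either genotype and 3 fell in the average (Bmp1, Loxl1 and Pcsk6). Of the AP-1 genes, which encode the transcription factor whose motif was searched for in the promoters, 5 of 8 rose in MKO and 7 of 8 in WT, with Fosb at 4.91 ± 0.61 in MKO and 7.49 ± 0.61 in WT, Junb at 5.17 ± 0.41 in MKO and 6.66 ± 0.44 in WT, and Jun passing as a fall in WT (-0.88 ± 0.18). Of 4 tested genes for Emmprin (Bsg) and inducers of MMPs, none passed in either genotype, and Il6 and Tnf were at 0 in every library. Tgfb1 passed as higher in the average over genotypes (0.44 ± 0.09, edgeR, adjusted p = 0.00598).

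Markers of the cell types that make these genes moved with the run as well. All 12 fibro-adipogenic progenitor markers had negative log2 fold changes in both genotypes, with a median of -0.64 in MKO and -0.74 in WT. Of them 7 passed as lower in MKO and 8 in WT, Pdgfra the furthest at -1.22 ± 0.13 in MKO and -1.63 ± 0.14 in WT. Their summed level was 604 to 779 CPM in the 6 exercised libraries and 1085 to 1337 CPM in the 6 sedentary ones. Of 10 macrophage markers, 7 had negative fold changes in MKO (median -0.24, 1 passed) and 10 in WT (median -0.72, 2 passed). Of 10 endothelial markers, Tek and Vwf fell in MKO, and in WT Tek fell and Esam and Flt1 rose. Of 10 smooth muscle and pericyte markers, Pdgfrb fell in both genotypes and Tagln in WT, and of 5 tested tenocyte markers Chodl fell in MKO and Fmod in WT. These lists share genes with those of the substrates and partners, so they are not separate evidence. Dcn and Lum were both proteoglycan genes and progenitor markers. Fmod was both a proteoglycan gene and a tenocyte marker, and Mfap5 both a microfibril gene and a progenitor marker. No muscle fibre, mast cell, Schwann cell, adipocyte or satellite cell marker passed in either genotype. The part of these shifts in the fall of Mmp2, Mmp28, Timp2, Adamts2 and Adamts5 was not tested.

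The responses to running were then compared between genotypes by an interaction term, which asks whether loss of cellular Feimin changes the effect of the run. None of the 30 genes passed (edgeR, and 0 with DESeq2 or limma-voom), nor did any of the 14486 genes tested (0%), and 1 of the 30 had an unadjusted p under 0.05, as did 3.69% of all genes. That gene was Adamtsl2, with a smaller rise in MKO than in WT by 1.45 ± 0.33 in log2 fold change (difference -1.45, edgeR, unadjusted p = 0.00088, adjusted p = 0.983). Its sedentary level was 2.38 ± 0.22 CPM in MKO and 1.16 ± 0.304 CPM in WT without overlap, and its exercised level was 8.25 ± 2.03 CPM in MKO and 11.0 ± 1.95 CPM in WT with overlap. The next genes by p were Adamts20 (difference -1.75 ± 0.84) and Mmp14 (0.67 ± 0.38), both at edgeR adjusted p = 0.983. All 10 genes that passed in WT had the same direction in MKO, and 8 of the 10 had the smaller fold change in MKO. The 10 were picked by passing in WT, which favours a larger fold change there, so the count is description. None of the differences between the responses passed the test, so a smaller response in MKO was not established for any of the 10. For the TIMPs the difference was 0.04 ± 0.13 for Timp2, -0.16 ± 0.20 for Timp3 and 0.16 ± 0.28 for Timp4, and for the proteases it was 0.09 ± 0.21 for Mmp2, -1.01 ± 0.92 for Adamts4, -0.34 ± 0.26 for Adamts5 and -0.18 ± 0.47 for Adamts1 (edgeR, adjusted p from 0.983 to 0.99). For Timp1, with no count in exercised WT muscle, no difference is given (edgeR, adjusted p = 0.983).

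In sedentary muscle, where MKO was compared with WT to ask what the knockout does at rest, 0 of the 30 genes passed (edgeR, and 0 with DESeq2 or limma-voom), against 0.0069% of all genes, and 2 had an unadjusted p under 0.05, Adamtsl2 and Adamts20, as did 3.76% of all genes. Adamtsl2 was 2.05-fold higher in sedentary MKO than in sedentary WT muscle at the levels given above (log2 fold change 1.03 ± 0.27, edgeR, adjusted p = 1). Adamts20, a versican-cutting protease, had 1.33, 1.6 and 2.0 CPM in sedentary MKO and 1.10, 0.742 and 0 CPM in sedentary WT muscle (1.41 ± 0.61, edgeR, adjusted p = 1). Macrophage elastase (Mmp12), the gene with the next p, had 0, 7 and 40 counts in sedentary MKO and 0, 8 and 0 counts in sedentary WT muscle (2.39 ± 1.38, edgeR, adjusted p = 1). The groups overlapped for Mmp12 and not for the other 2. In 6 of the 30 genes every MKO library was above every WT library (Adamts4, Adamts7, Adamts12, Adamts20, Adamtsl2 and Timp2) and in 0 every MKO library was below, while 5.43% of all genes were wholly above and 4.91% wholly below. Of these genes, Adamts7 and Adamts12 had reached 10 counts in at least 3 libraries of MKO only. Adamts4 had 5, 4 and 7 counts in sedentary MKO and 0, 3 and 3 in sedentary WT muscle, near the floor of 3 counts. The count is therefore given as description. The log2 fold change was 0.11 ± 0.09 for Timp2, -0.04 ± 0.14 for Timp3, 0.22 ± 0.14 for Mmp2, -0.06 ± 0.25 for Mmp14, -0.39 ± 0.34 for Adamts1, 1.28 ± 0.82 for Adamts4 and 0.15 ± 0.17 for Adamts5, 0.0036 ± 0.19 for Timp4 and 2.55 ± 1.55 for Timp1 (edgeR, adjusted p = 1 for each). Over the 30 genes the median was 0.12, with 21 positive, against 0.00195 over all genes, and it was 0.23 without sedentary WT replicate 3.

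In exercised muscle the comparison of MKO with WT again gave 0 of 30 genes that passed (edgeR, and 0 with DESeq2 or limma-voom), against 0.0345% of all genes, and 5 had an unadjusted p under 0.05 (Adamts2, Adamts14, Mmp12, Timp1 and Adamtsl2), while 16% of all genes did. Adamts2 had the lowest p, at a log2 fold change of 0.44 ± 0.16 (edgeR, adjusted p = 0.233) on the levels given above. Adamts14 had 1.03, 0.741 and 0.862 CPM in exercised MKO and 0.212, 0.739 and 0.442 CPM in exercised WT muscle (0.92 ± 0.38, edgeR, adjusted p = 0.272). Mmp12 had 47, 9 and 33 counts in exercised MKO and 9, 4 and 0 counts in exercised WT muscle, which is 3.22, 0.667 and 2.37 CPM in MKO against 0.637, 0.295 and 0 CPM in WT (2.71 ± 1.16, edgeR, adjusted p = 0.286). Adamts14 and Mmp12 were the 2 genes with every MKO library above every WT library, and 11.1% of all genes were so. Both had reached 10 counts in at least 3 libraries of MKO only, Mmp12 in 3 of MKO and 0 of WT, so Mmp12 entered the test through the genotype where it was high. Timp1, with counts in 2 of 3 exercised MKO libraries and in 0 of 3 exercised WT ones, was at least 7.39-fold higher in MKO (1.61 ± 2.02 CPM against a floor of 0.218 CPM; edgeR, adjusted p = 0.301), and exercised MKO replicate 2 had no count of it. The bound rests on exercised MKO replicate 4, without which it was 2.2-fold (0.479 CPM). The log2 fold change was 0.15 ± 0.09 for Timp2, -0.20 ± 0.14 for Timp3, 0.17 ± 0.20 for Timp4, 0.31 ± 0.15 for Mmp2, 0.60 ± 0.29 for Mmp14, -0.57 ± 0.33 for Adamts1, 0.27 ± 0.42 for Adamts4 and -0.18 ± 0.19 for Adamts5 (edgeR, adjusted p from 0.327 to 0.778). The median over the 30 genes was 0.17, with 18 positive, and it was the same with Timp1 set at its bound but 0.0133 without exercised WT replicate 4.

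**Figure D4:**
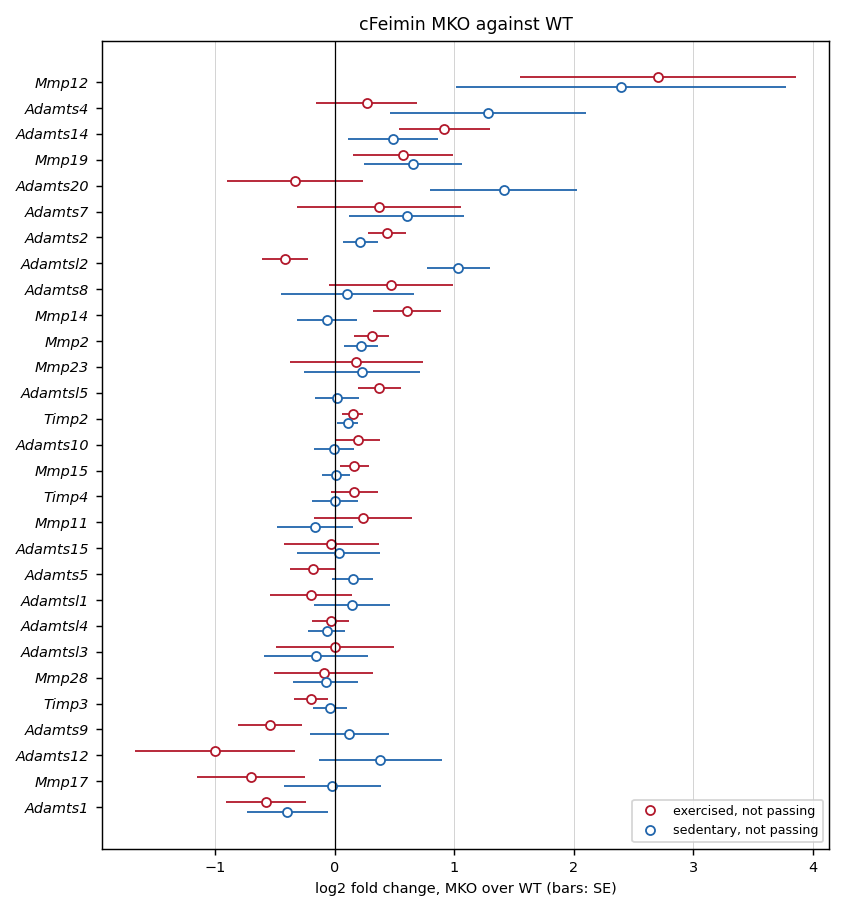
Log2 fold change of MKO over WT (bars ± SE) in exercised and in sedentary muscle for 29 of the 30 tested genes, Timp1 left out because exercised WT muscle had no count of it. No gene had an adjusted p under 0.05; Mmp12 lies furthest to the right at 2.71 in exercised and 2.39 in sedentary muscle, with SEs above 1.

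Averaged over both states, MKO against WT gave 0 of 30 genes that passed (edgeR, and 0 with DESeq2 or limma-voom; 0.0138% of all genes passed), with 5 at an unadjusted p under 0.05, as were 15.5% of all genes. These were Adamts2 (log2 fold change 0.33 ± 0.11, edgeR, adjusted p = 0.216), Mmp12 (2.55 ± 0.90, edgeR, adjusted p = 0.234), Timp1 (edgeR, adjusted p = 0.243), Adamts14 (0.70 ± 0.27, edgeR, adjusted p = 0.258) and Mmp2 (0.27 ± 0.10, edgeR, adjusted p = 0.263). For the others of the group followed throughout it was 0.13 ± 0.06 for Timp2, -0.12 ± 0.10 for Timp3, 0.08 ± 0.14 for Timp4, 0.27 ± 0.19 for Mmp14, -0.48 ± 0.24 for Adamts1, 0.77 ± 0.46 for Adamts4 and -0.02 ± 0.13 for Adamts5 (edgeR, adjusted p from 0.351 to 0.965). Averaged over genotypes, running gave 0.01 ± 0.10 for Timp3 and 0.44 ± 0.24 for Adamts1, which did not pass (edgeR, adjusted p = 0.963 for Timp3 and 0.277 for Adamts1).

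Mmp12 and Timp1 had their highest counts in the same 3 libraries. Exercised MKO replicates 1 and 4 had 47 and 33 counts of Mmp12 and 14 and 54 counts of Timp1, and sedentary MKO replicate 3 had 40 counts of Mmp12 and 87 of Timp1. Every other library had at most 9 counts of Mmp12 and 11 of Timp1, so the 14 counts of Timp1 in exercised MKO replicate 1 were close to the rest. The summed level of the 10 macrophage markers examined was 161.3, 166.2 and 170.8 CPM in these 3 libraries, the highest of the 12. Exercised MKO replicate 2 had 65.7 CPM and sedentary MKO replicates 1 and 2 had 131.8 and 124.7 CPM. WT libraries had 62.6, 58.6 and 50.5 CPM after the run and 82.1, 114.4 and 77.5 CPM in the sedentary state. All 10 macrophage markers had a positive log2 fold change of MKO over WT in exercised muscle (median 1.17) and in sedentary muscle (median 0.62), and no tested gene of the 8 pathway or 11 cell type lists passed between genotypes in either state. Other lists leaned the same way. Of 6 Schwann cell markers, 6 were positive in sedentary and 5 in exercised muscle (medians 0.53 and 0.33). Of 12 fibro-adipogenic progenitor markers, 10 and 9 were positive (medians 0.13 and 0.28), and of 5 tested mast cell markers 5 and 3. Some leaned the other way, with 1 and 2 of 6 muscle fibre markers and 1 and 0 of 4 tested adipocyte markers positive. Schwann cell markers summed to 58.2 to 280.8 CPM in exercised MKO, 79.3 to 208.9 CPM in exercised WT, 76.6 to 364.7 CPM in sedentary MKO and 65.5 to 162.1 CPM in sedentary WT libraries. The part of these marker differences in the levels of Mmp12 and Timp1 was not tested.

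**Figure D5:**
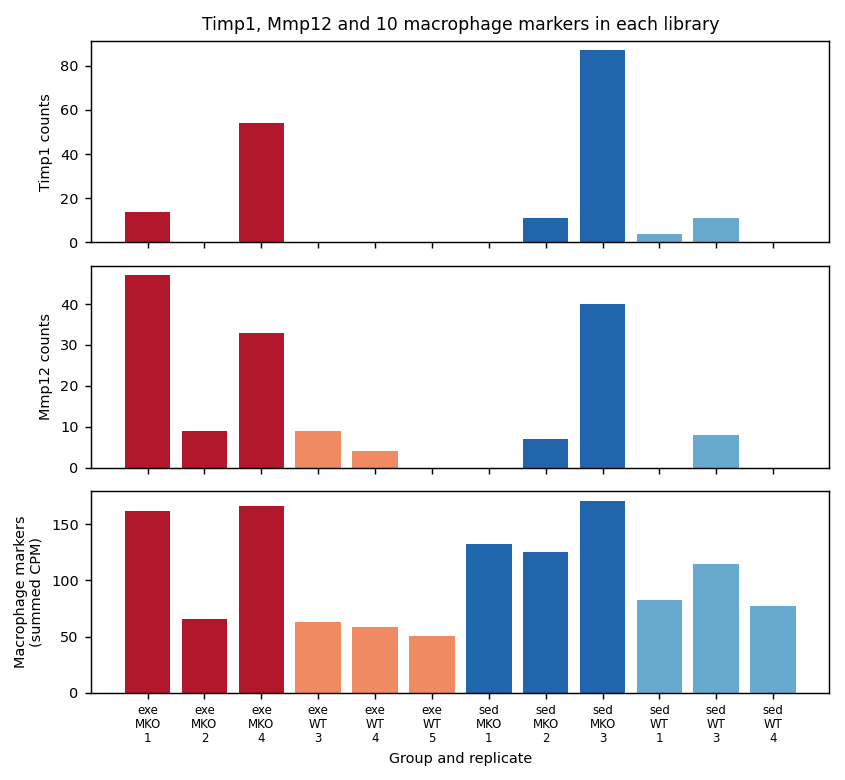
Counts of Timp1 and of Mmp12, and the summed CPM of 10 macrophage markers, in each of the 12 libraries. The order is exercised MKO, exercised WT, sedentary MKO, sedentary WT. Exercised MKO replicate 4 and sedentary MKO replicate 3 stand high in all 3 panels, at 54 and 87 counts of Timp1. Exercised MKO replicate 1 stands high for Mmp12 and the markers. It has 14 counts of Timp1, close to the 11 counts of sedentary WT replicate 3.

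Several of the 36 genes overlap or neighbour other genes, which bears on how their reads could be assigned. Timp1, Timp3 and Timp4 each lie within a synapsin gene on the opposite strand, Syn1, Syn3 and Syn2, and Timp3 shares 1733 exonic bases with Syn3, which had 54 counts against 21672 of Timp3. Mmp11 shares 155 exonic bases with Chchd10, a mitochondrial gene with 148862 counts against 300 of Mmp11, and Chchd10 did not pass with running (log2 fold change 0.26, edgeR, adjusted p = 0.432 in MKO, and -0.01, edgeR, adjusted p = 0.99 in WT). Adamts9 shares 1381 bases with A730049H05Rik, which had 61 counts against 2402 of Adamts9. The mean of A730049H05Rik was 0.507 CPM in exercised MKO and 0.927 CPM in exercised WT muscle. In sedentary muscle it was 0.0403 CPM in MKO and 0 CPM in WT. Its part in the rise of Adamts9 was not tested. Mmp28 shares 466 exonic bases with 1700020L24Rik on the opposite strand, which had 58 counts against 245 of Mmp28. The mean of 1700020L24Rik was 0.163 CPM in exercised MKO and 0.0964 CPM in exercised WT muscle. In sedentary muscle it was 0.497 CPM in MKO and 0.548 CPM in WT. Its part in the fall of Mmp28 was not tested. Close pairs within the family were Adamts15 and Adamts8, 20109 bases apart on chromosome 9, Adamts13 and Adamtsl2, 69750 bases apart on chromosome 2, and Mmp12 and Mmp3, 76322 bases apart on chromosome 9. Adamts13 had 0.0958 ± 0.166 CPM in exercised MKO, 0.123 ± 0.113 CPM in exercised WT, 0.0444 ± 0.0769 CPM in sedentary MKO and 0.0916 ± 0.0793 CPM in sedentary WT muscle and was not tested. Adamts3 (0.291 to 0.341 CPM in the group means) and Adamts6, at 0 in all 3 exercised MKO libraries and 0.121 to 0.590 CPM in the other 9, were the other ADAMTS genes too low to test.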

How the data were processed

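Total RNA of 12 gastrocnemius libraries (3 per group) had been extracted with a GeneMark kit and libraries sequenced on DNBSEQ by BGI, per the labels' protocols, which speak of 18 libraries. The authors deposited a table of raw counts per Ensembl gene. Per the submitters' processing notes the tools were HISAT2 2.2.1 and StringTie 2.1.4, with SAMtools 1.9, FastQC 0.12.1, DESeq2 1.40.2 and R 4.3, on build mm10 (GRCm38.p6). The counting tool and its treatment of strand and multiply matching reads are not given in the sources used. The misspelt name of 1 column was read as replicate 4 of exercised MKO, since no other library lacked a column.

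Symbols, positions and exon lengths came from GENCODE M21 (GRCm38.p6), in which 42548 of 43432 rows had a symbol; the other 884 rows held 0.0875% of the counts. Tests used edgeR 4.0.16 (R 4.3.3): filterByExpr (minimum count 10, minimum total 15) left 14486 genes, libraries were scaled with TMM factors (0.928 to 1.15), and 1 quasi-likelihood model over all libraries estimated a mean per group, leaving 8 residual degrees of freedom. The biological coefficient of variation was 15.3%. P-values were adjusted by Benjamini-Hochberg over all genes tested, with a threshold of 0.05. Each standard error is the fold change divided by the root of its F statistic. CPM were computed from the counts and TMM factors, and RPKM from CPM and the summed length of merged exons. Group floors used 3 counts per library, for counting error only. The precision of low genes is limited by depth.

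Alternatives were DESeq2 1.42.0, limma-voom (limma 3.58.1), median-of-ratios and total-count scaling, no filter, 1 CPM in 3 libraries, only the groups compared, the replicate number as a block, each of the 12 libraries left out, and 3 libraries that stood apart left out together. The model was tested on simulated data. No replicates were duplicates of each other. Promoter windows came from RefSeq (GRCm38.p6).

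The 36 genes, the 8 pathway lists and the 11 cell type lists were chosen with earlier results of these data known. Named in the text are genes that passed, the 3 with the lowest unadjusted p where fewer than 3 passed, and 10 genes followed in every comparison in which they were tested (Timp1, Timp2, Timp3, Timp4, Mmp2, Mmp9, Mmp14, Adamts1, Adamts4 and Adamts5). Of the lists, only some of the genes that passed are named, up to 4 a list, and not always those with the lowest p. Others were named after their values were seen. Plots were made in Python 3.11.15 (matplotlib 3.10.9).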

Additional observations from a re-analysis of the deposited data

How the results depend on the processing

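Under the alternatives, each count of genes that passed with running stayed within 1.5 times its value, though the genes behind it changed. The counts for the genotype comparisons and the interaction were 0 throughout. With each library left out in turn, 6 to 8 genes passed with running in MKO, 7 to 11 in WT and 10 to 13 in the average, and 0 passed in any genotype comparison. Whether libraries with the same replicate number are paired was not settled. Of 10 pairs with the same number in different groups, 0 had deviations correlated above 0.1 (r from -0.153 to 0.0759, against -0.103 to 0.109 for other pairs). With 3 libraries a group, such correlations cannot show that the numbers mark no pairs. With the replicate number as a block, 6 genes passed in MKO, 7 in WT and 12 in the average, Adamts4 in WT had 2.72 and Mmp11 in WT had -2.07. Without a filter the counts were 7 in MKO, 8 in WT and 11 in the average. Under every alternative 4 of the 8 calls in MKO, 4 of the 10 in WT and 10 of the 13 in the average were kept. Under the block the calls lost were Adamts2 and Mmp2 in MKO (adjusted p = 0.2 and 0.088), Adamts2, Mmp2 and Mmp28 in WT (0.0771, 0.0606 and 0.0599) and Adamts7 in the average (0.118). With only the groups compared they were Adamts2 and Mmp28 in MKO (0.131 and 0.0604) and Adamts10 and Mmp11 in WT (0.0896 and 0.0807). Without a filter they were Adamts2 in MKO (0.0664), Adamts5 and Mmp11 in WT (0.0507 and 0.0588) and Adamts7 and Mmp14 in the average (0.0762 and 0.0657). DESeq2 lost Adamts2 in MKO (0.0674) and Mmp14 in the average (0.0623), and limma-voom lost Adamts4 in MKO (0.0631) and Mmp14 in the average (0.051). Without the 3 libraries that stood apart, Adamts2 and Adamts4 in MKO (0.135 and 0.115) and Adamts7 in the average (0.0722) were lost. Scaling by total counts alone moved the median of all genes with running by -0.15 in MKO and -0.10 in WT, and 9 genes passed in MKO and 12 in WT. Depth limits the genes under about 1 CPM, where 3 counts are 0.181 to 0.222 CPM.

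The log2 fold changes that changed sign had all failed the test, and the cause was not tested. For MKO against WT in sedentary muscle, Timp4 was -4.83e-05 with DESeq2, -0.000303 with median-of-ratios scaling, -0.00362 with only the groups compared, -0.0477 under the replicate block and -0.16 to 0.12 with a library left out. There Timp3 was 0.0397 with total counts, 0.0320 without the 3 libraries that stood apart and -0.11 to 0.0259 with a library left out. Mmp14 was 0.0224 with total counts, 0.11 under the block and -0.29 to 0.20 with a library left out, and Adamts5 was -0.0247 without the 3 libraries and -0.0291 to 0.27 with a library left out. For exercised muscle, Timp4 was -0.0874 and Adamts5 0.10 under the block, Timp3 was 0.0359 without the 3 libraries, and Adamts4 was -0.0999 to 0.62 with a library left out, negative without WT replicate 4 or MKO replicate 4. With running in MKO, Timp1 was 0.74 under the block, 0.42 without the 3 libraries and -2.03 to 2.12 with a library left out, and Timp3 was 0.0180 without the 3 libraries and -0.19 to 0.0892 with a library left out. With running in WT, Timp3 was -0.00754 with total counts.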
